A study of Mus musculus with 13 samples.

Results

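The regions described here are the H3K27me3 peaks of wild-type mouse embryonic stem cells (mESCs) that were called in one library and not in its replicate. In ChIP-seq, DNA bound to a protein or modified histone is recovered with an antibody and sequenced, and stretches with an excess of fragments are called as peaks. Members were chosen by the peak calls themselves: a peak of one H3K27me3 list was a member when no peak of the other list shared at least 1 bp with it, on chromosomes 1 to 19, X and Y of the mm9 build. Replicate 1 gave 7769 such peaks among 14112, which is 55.05% of the list (95% Wilson interval 54.23 to 55.87). Replicate 2 gave 2408 among 9275, or 25.96% (25.08 to 26.86). Together the 10177 members stood among 35927 peaks in the 5 lists used. The remaining 6343 peaks of replicate 1 and 6867 of replicate 2 overlapped each other and are called shared.

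The study profiled endogenous AEBP2 and H3K27me3 in 2 replicates each, and FS2-AEBP2, which is AEBP2 with an N-terminal Flag-StrepII tag, in 1 sample. All 5 samples are labelled as wild-type cells of a male (XY) ES cell line of strain 129/1, grown undifferentiated on gelatine with serum and LIF and with no treatment. For the tagged protein, which was expressed from a plasmid, the methods name E14 mESCs instead. The design text calls the replicates biological, and nothing further in the sources says whether they were separate cultures. The label of the histone antibody names H3K27 without a methylation state, and the methylation state comes from the paper. In the names given to both H3K27me3 lists, the replicate numbers appear to be the reverse of those in the sample records. The records were followed here, so the numbers 1 and 2 are names of lists and may be exchanged. Depth is unknown because the lists hold no read counts, and a site without a called peak need not lack the mark.

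PRC2 is the Polycomb complex that methylates histone H3 to give H3K27me3, a mark that in mESCs lies over CpG islands at the promoters of silent developmental genes and spreads thinly over much of the remaining genome. AEBP2 is an accessory subunit of one form of PRC2. CpG islands are stretches of DNA that kept their CpG dinucleotides because they are not methylated in the germ line, and most of the mammalian genome is poor in CpG.

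Short stretches of 6 members and of 1 shared peak are printed as examples, which were chosen by score and need not be typical of the sets. For each, the 200-base window with most CpG was taken, leaving out annotated UTR bases (164 bases where the peak was shorter). All are from the plus strand of mm9 and every CpG is in capitals. In replicate 1 the members were the promoter member with the highest score that had an AEBP2 peak (Disc1, chr8:127578306-127578505, an intron), the highest without one (Ccdc27, chr4:153408225-153408424, an intron) and the highest away from any gene (chr14:63902115-63902314, the nearest start site being that of Gata4). The same choice in replicate 2 gave Fbxl7 (chr15:26824600-26824799, reaching into an exon), Gm10800 (chr2:98506915-98507114, an exon) and a site between genes (chr2:98505193-98505356). The shared promoter peak with the highest score in replicate 1 was that of Wnt10a (chr1:74841162-74841361, an intron).
Disc1: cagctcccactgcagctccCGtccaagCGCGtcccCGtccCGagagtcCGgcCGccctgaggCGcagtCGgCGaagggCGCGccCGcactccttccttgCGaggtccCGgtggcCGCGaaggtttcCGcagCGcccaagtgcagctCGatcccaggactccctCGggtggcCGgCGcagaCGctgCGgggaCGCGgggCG
Ccdc27: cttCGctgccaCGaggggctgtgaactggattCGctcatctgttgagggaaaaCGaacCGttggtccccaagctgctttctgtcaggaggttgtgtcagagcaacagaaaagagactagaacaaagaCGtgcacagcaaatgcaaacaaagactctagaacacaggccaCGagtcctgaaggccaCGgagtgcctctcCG
Gata4 side: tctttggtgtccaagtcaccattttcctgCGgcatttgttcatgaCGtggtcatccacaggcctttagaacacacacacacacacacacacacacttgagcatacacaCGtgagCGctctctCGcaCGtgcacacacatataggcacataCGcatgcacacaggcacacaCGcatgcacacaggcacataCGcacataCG
Fbxl7: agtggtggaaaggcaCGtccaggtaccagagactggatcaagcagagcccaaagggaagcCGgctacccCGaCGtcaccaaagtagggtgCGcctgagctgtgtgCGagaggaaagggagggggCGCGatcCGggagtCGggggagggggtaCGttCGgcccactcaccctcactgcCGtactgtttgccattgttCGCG
Gm10800: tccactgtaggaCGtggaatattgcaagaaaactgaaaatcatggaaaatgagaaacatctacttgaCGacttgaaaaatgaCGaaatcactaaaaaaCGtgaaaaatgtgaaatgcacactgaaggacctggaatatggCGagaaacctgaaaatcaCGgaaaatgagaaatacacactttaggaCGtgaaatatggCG
Gm10800 side: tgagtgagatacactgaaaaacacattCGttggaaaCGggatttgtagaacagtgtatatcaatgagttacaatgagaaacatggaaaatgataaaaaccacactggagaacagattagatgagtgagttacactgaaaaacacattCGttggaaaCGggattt
Wnt10a: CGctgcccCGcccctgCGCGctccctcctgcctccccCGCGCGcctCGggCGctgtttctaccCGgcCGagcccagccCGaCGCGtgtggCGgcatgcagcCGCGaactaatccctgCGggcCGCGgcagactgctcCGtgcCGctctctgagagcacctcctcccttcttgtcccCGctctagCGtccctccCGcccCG
The Disc1 stretch held 28 CpG at a GC content of 74.5%, close to the 26 CpG and 74.5% of the shared Wnt10a stretch. Fbxl7 held 15 CpG at 63.0% GC. Ccdc27 and the site near Gata4 held 9 and 10 CpG, the latter in a window with runs of CA repeats. The Gm10800 stretch and its neighbour held 8 and 4 CpG at 37.5% and 36.0% GC. Sequence words of 31 bases from these neighbouring members occurred in a median of 43 and 4 copies in the assembly. Most words were in more than 1 copy in 2.741% of replicate-2-only members, so this pair does not stand for the set.

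Members were shorter and scored lower than shared peaks, and because the rule was built on the calls themselves these values are a description. The replicate-1-only peaks had a median length of 1197 bp (95% interval of the median 1158 to 1230) against 4110 bp for shared peaks of that list, and ran from 182 to 18486 bp. Replicate-2-only peaks had a median of 828 bp (796 to 883) against 3064 bp, and ran from 131 to 6488 bp. Peaks under 300 bp made up 11.76% of the replicate-1-only set and 21.05% of the replicate-2-only set, compared with 1.119% and 3.0% of the shared peaks. In the plot of lengths these short peaks form a separate hump below 400 bp in both sets. A single stricter sub-region, as the broad peak layout lists them, was present in 82.13% and 82.43% of members and in 26.12% and 30.14% of shared peaks. The replicate-1-only peaks took up 26.52% of the bases of their list, and the replicate-2-only peaks 8.0%.

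**Figure D1:**
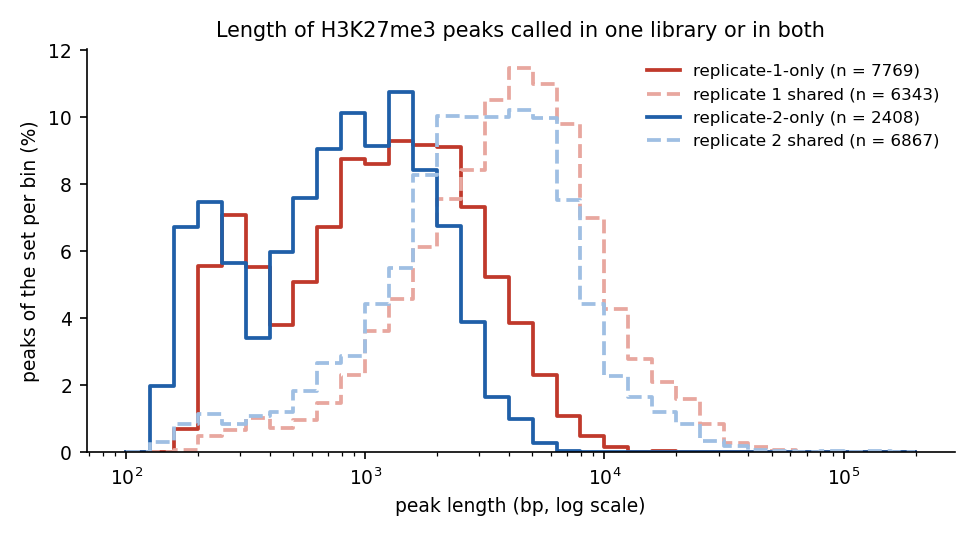
Percentage of the peaks of each set (y axis) in bins of peak length in bp (log x axis), with solid lines for the one-library sets and dashed lines for the shared peaks of the same list. Both solid lines lie to the left of both dashed lines, with medians of 1197 and 828 bp against 4110 and 3064 bp.

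The score is a whole number of the peak caller, given without its scale, and served here to order the peaks of a single list. Its median was 4 in both one-library sets and 9 in both shared sets. Of replicate 1 peaks with a score of 3 or 4, 79.54% were members, and of those scoring 10 to 19, 9.694% were. At 20 and above 7 of 1109 peaks (0.6312%) remained unmatched. In replicate 2 the corresponding shares were 49.43% and 3.915%, with 7 of 966 peaks (0.7246%) at 20 and above. Thus nearly all peaks with high scores in either list had a counterpart.

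At the edge of the rule, the members closest to the other list missed it by 1, 2 and 5 bp in both sets. The shared peaks closest to the edge overlapped by 6, 7 and 8 bp in replicate 1 and by 4, 7 and 9 bp in replicate 2. There were 42 replicate-1-only and 32 replicate-2-only members with a gap of up to 100 bp, and 50 and 54 shared peaks with an overlap of up to 100 bp. Most members were far from the edge. The median distance to the nearest peak of the other list was 25242 bp for replicate-1-only and 24643 bp for replicate-2-only peaks, and 5.96% and 13.66% lay within 1 kb of one.

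The sets differed in where they lay relative to genes. A promoter was taken as 1 kb on either side of the start of each of 22367 protein-coding genes. Among replicate-1-only peaks 414 touched a promoter (5.329%, 4.851 to 5.851), where 2.61% of genome tiles of 1197 bp did. Among replicate-2-only peaks 618 did (25.66%, 23.96 to 27.45), against 2.32% of tiles of 828 bp. Shared peaks touched a promoter in 50.76% and 49.42% of cases. The difference between the one-library sets was 20.34 percentage points (95% Newcombe interval 18.55 to 22.18). These intervals cover counting error over peaks only, since each set comes from 1 library.

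The remaining replicate-1-only peaks lay on exons in 14.15% of cases, within introns in 21.89% and between protein-coding genes in 58.63%. Tiles of the same median length gave 8.847%, 28.86% and 59.68%, so that the exon share was above and the intron share below that of the tiles. In the replicate-2-only set 7.392% lay on exons, 20.89% within introns and 46.05% between genes, where tiles gave 7.329%, 30.42% and 59.93%. A peak that touched a promoter was not counted on an exon, which lowers the exon share most in the replicate-2-only set. Counted by bases instead, protein-coding exons covered 6.076% of replicate-1-only and 6.738% of replicate-2-only peaks, against 3.012% of the genome. The median distance to the nearest start site was 32319 bp (31031 to 33742) for replicate-1-only peaks and 11449 bp (9495 to 13285) for replicate-2-only peaks, compared with 856 and 1168 bp for shared peaks. Promoters of non-coding genes were touched by 2.446% (2.125 to 2.813) of replicate-1-only and 5.523% (4.68 to 6.509) of replicate-2-only peaks. Shared peaks touched one in 10.85% and 9.888% of cases, and no share of tiles was taken. Some of these members also touched a protein-coding promoter. Without them the shares were 2.124% (1.826 to 2.469) and 3.239% (2.603 to 4.024). Promoters of lincRNA genes were touched by 27 and 55 members, a count not taken for shared peaks or tiles.

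The presence of CpG-island-like regions followed the same order. A CpG-island-like region was defined as joined 500-bp windows in which GC reached 55% and the ratio of observed to expected CpG reached 0.65, which gave 20675 regions. Such a region was present in 240 replicate-1-only peaks (3.089%, 2.727 to 3.498), where 1.81% of tiles held one. It was present in 606 replicate-2-only peaks (25.17%, 23.47 to 26.94), against 1.53% of tiles. Shared peaks held one in 61.3% and 60.07% of cases. The difference between the one-library sets was 22.08 points (20.34 to 23.89). It depended on the definition, since with windows of 200 bp, 50% GC and a ratio of 0.6 the shares were 23.65% and 33.85%. With the first definition, members that met neither a promoter nor such a region made up 92.77% of the replicate-1-only and 65.07% of the replicate-2-only set.

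GC content and CpG density moved apart between the sets. The median GC content of replicate-1-only peaks was 50.386% (50.253 to 50.482), close to the 50.435% of shared peaks and above the 41.52% of tiles. Replicate-2-only peaks had a median of 45.861% (45.556 to 46.207), between the 49.695% of shared peaks and the 41.546% of tiles. CpG dinucleotides per 100 bases were nearly equal, with medians of 1.2035 (1.1864 to 1.2199) and 1.1883 (1.1364 to 1.2301), and both lay between the 0.66834 and 0.60386 of tiles and the 2.1495 and 2.0891 of shared peaks. The observed to expected CpG ratio was 0.19551 (0.19299 to 0.198) in the replicate-1-only and 0.23082 (0.22442 to 0.24265) in the replicate-2-only set. Whether GC content affected the recovery of fragments in either library was not tested.

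Because members were shorter than shared peaks, the shares were also taken within bins of length. Between 1 and 2 kb, replicate-2-only peaks touched a promoter in 37.04% of cases and shared peaks of that list in 34.47%, a difference (shared minus member) of -2.571 points (-7.066 to 1.863). The shares with a CpG-island-like region were 41.43% and 39.87% here, a difference of -1.562 points (-6.151 to 2.986). Below 1 kb, replicate-2-only peaks exceeded shared peaks on both counts, with promoter shares of 17.25% and 11.78% and a difference of -5.473 points (-8.326 to -2.501). At 2 to 4 kb shared peaks were ahead by 13.01 points (7.003 to 18.72) for promoters. Up to 2 kb, therefore, the promoter share of replicate-2-only peaks was not resolved as lower than that of shared peaks of like length. Replicate-1-only peaks behaved differently, being below shared peaks in every bin, by 15.84 points (12.52 to 19.61) for promoters below 1 kb and by 53.53 points (50.51 to 56.13) at 4 kb and above.

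AEBP2 was rare on members of both sets. A peak of either endogenous AEBP2 list overlapped 106 replicate-1-only peaks (1.364%, 1.129 to 1.647), where 0.769% of tiles had one, and 118 replicate-2-only peaks (4.9%, 4.108 to 5.837), where 0.673% of tiles had one. Shared peaks had one in 48.29% and 45.59% of cases. The one-library sets differed by 3.536 points (2.694 to 4.501). Counting FS2-AEBP2 as well, 114 and 130 members had an AEBP2 peak (1.467% and 5.399%), against 0.807% and 0.706% of tiles. Since long peaks meet more of any other list by their length alone, the share of bases was also taken. AEBP2 replicate 2 peaks covered 0.5197% of the bases of replicate-1-only peaks and 1.683% of those of replicate-2-only peaks, against 0.4296% of the genome and 24.31% and 28.48% of the bases of shared peaks.

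The 3 AEBP2 lists did not behave alike in the sets. In the replicate-1-only set, AEBP2 replicate 1 peaks overlapped 8 members (0.103%, tiles 0.353%), AEBP2 replicate 2 peaks 103 (1.326%, tiles 0.742%) and FS2-AEBP2 peaks 19 (0.2446%, tiles 0.334%). AEBP2 replicate 1 peaks were thus met less often on these members than on tiles, and covered 0.03383% of their bases against 0.2227% of the genome. In the replicate-2-only set, the same lists overlapped 36 (1.495%, tiles 0.315%), 102 (4.236%, tiles 0.649%) and 24 members (0.9967%, tiles 0.302%), all above the tiles. As a share of each AEBP2 list, replicate-1-only members without a shared peak held 0.2781% of the 2877 peaks of AEBP2 replicate 1, 1.564% of the 6779 of replicate 2 and 0.6588% of the 2884 of FS2-AEBP2. Replicate-2-only members held 1.251%, 1.431% and 0.8669%. Peaks of all 3 lists met on 3 replicate-1-only and 4 replicate-2-only members, compared with 1238 and 1234 shared peaks.

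The AEBP2 overlap went with the CpG-island-like regions. Among replicate-1-only members that held such a region, 61 of 240 had an endogenous AEBP2 peak (25.42%, 20.33 to 31.28), and among those that did not, 0.5977% had one (0.447 to 0.7988). Among replicate-2-only members the shares were 109 of 606 (17.99%, 15.13 to 21.24) and 0.4994% (0.263 to 0.9465). Shared peaks stood higher in both classes, at 73.97% and 71.03% with a CpG-island-like region and at 7.617% and 7.33% without one. For both endogenous lists together, the larger AEBP2 share of the replicate-2-only set as a whole therefore did not recur within the classes. With a CpG-island-like region it was lower than in the replicate-1-only set by -7.43 points (replicate-2-only minus replicate-1-only, -13.95 to -1.386), and without one the difference of -0.09824 points (-0.4086 to 0.3735) was not resolved from 0. Split by length, the difference with a CpG-island-like region was -11.97 points (-23.4 to -1.958) below 1 kb. At 1 kb and above it was -5.532 points (-13.57 to 1.808) and was not resolved. AEBP2 replicate 2 peaks were present on 103 of the 106 replicate-1-only and 102 of the 118 replicate-2-only members with an endogenous peak. The classes were not taken for each AEBP2 list alone, so nothing is shown here for AEBP2 replicate 1.

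**Figure D2:**
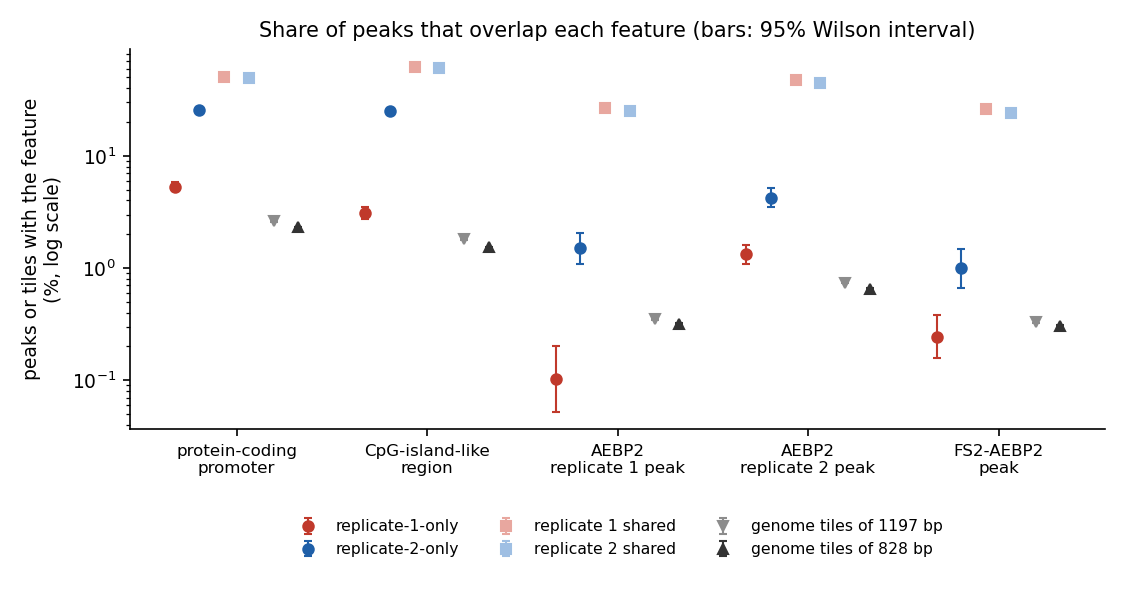
Percentage of peaks, or of genome tiles, that overlap each feature (log y axis), with 95% Wilson intervals as bars and circles for one-library peaks, squares for shared peaks and triangles for tiles. Shared peaks are highest for every feature, and replicate-2-only peaks lie above tiles throughout. Replicate-1-only peaks lie below tiles for AEBP2 replicate 1 (0.103% against 0.353%). For FS2-AEBP2 they are also lower (0.2446% against 0.334%), with the tile value inside their interval.

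Seen from the promoters, 387 of the 22367 protein-coding promoters (1.73%) carried replicate-1-only peaks alone and 542 (2.42%) carried replicate-2-only peaks alone, while 3486 carried a shared peak, 17 a member of each set and 17935 no H3K27me3 peak. Replicate-2-only promoters held a CpG-island-like region about as often as promoters with a shared peak, in 82.29% (78.85 to 85.27) against 84.6% (83.36 to 85.76) of cases. Replicate-1-only promoters did so in 27.91% of cases (23.67 to 32.58), below the 49.04% of promoters with no peak and the 55.05% of all promoters.

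Position relative to the start site separated the sets further. Of replicate-2-only members at a promoter, 18.61% (15.74 to 21.87) contained a start site, whereas 54.11% (49.29 to 58.85) of replicate-1-only members did, a difference of -35.5 points (-41.04 to -29.68). A longer peak contains a start site more readily, and this share was not split by length. The median length was 828 bp over the whole replicate-2-only set and 1197 bp over the replicate-1-only set. Shared peaks at a promoter contained one in 80.16% and 67.12% of cases. Around the start sites of the 542 replicate-2-only promoters, members covered 34.32% of positions 1 kb upstream, 21.03% of the start sites themselves and 57.2% of positions 1 kb downstream. The CpG-island-like regions had the opposite shape, covering 77.31% of these start sites, 5.72% at 1 kb upstream and 20.48% at 1 kb downstream. Thus the replicate-2-only peaks flanked the CpG-rich start site more often than they covered it. At the 387 replicate-1-only promoters coverage by members was 57.11% at the start site and largest, 60.21%, at 200 bp downstream. Promoters with a shared peak were covered at 83.16% of start sites and 92.03% of positions 1 kb downstream.

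**Figure D3:**
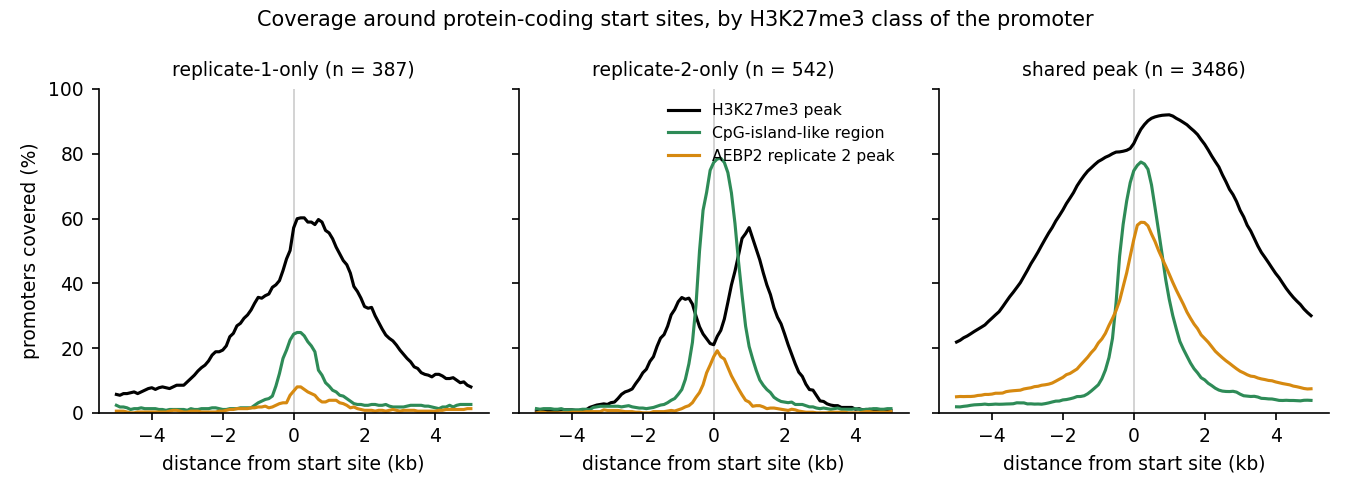
Percentage of promoters covered (y axis) by an H3K27me3 peak of the class (black), a CpG-island-like region (green) and an AEBP2 replicate 2 peak (orange) at distances of up to 5 kb from the start site, negative values being upstream. In the middle panel H3K27me3 coverage falls to 21.03% at the start site between maxima on either side, where the CpG-island-like regions are near their maximum of 78.6%.

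Peaks of AEBP2 replicate 2, the AEBP2 list that was profiled, were centred on the start site at the replicate-2-only promoters. Of all peaks of that list 45.58% met no H3K27me3 peak, compared with 26.83% for AEBP2 replicate 1 and 15.95% for FS2-AEBP2. AEBP2 replicate 2 peaks covered at most 19.19% of these promoters, at 100 bp downstream, and 3.321% at 1 kb downstream. Of the 132 replicate-2-only promoters with an AEBP2 replicate 2 peak, that peak overlapped the H3K27me3 member at 65 (49.24%, 40.86 to 57.67), and at the others the median gap between them was 336 bp. At replicate-1-only promoters they overlapped at 37 of 40 (92.5%, 80.14 to 97.42). These overlaps were not split by peak length. With AEBP2 replicate 1 the overlaps were 22 of 35 replicate-2-only (62.86%, 46.34 to 76.83) and 4 of 5 replicate-1-only promoters. With FS2-AEBP2 they were 7 of 9 (77.78%, 45.26 to 93.68) and 9 of 9.

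To ask whether promoters with a one-library peak had AEBP2 more often than promoters without H3K27me3, promoters with a CpG-island-like region were compared. AEBP2 replicate 2 peaks were present at 28.48% of 446 replicate-2-only, 32.41% of 108 replicate-1-only, 27.64% of 8796 peak-free and 74.87% of 2949 shared promoters of this kind. The difference from peak-free promoters was 0.8378 points (-3.263 to 5.293) for replicate-2-only and 4.77 points (-3.376 to 14.11) for replicate-1-only promoters, neither of which was resolved from 0. Both were far below the shared promoters, by -46.4 points (-50.67 to -41.76) and -42.47 points (-50.7 to -33.03). AEBP2 replicate 1 gave 7.399%, 4.63%, 6.855% and 45.13% in the same order, again with no resolved difference from peak-free promoters (0.5437 points, -1.609 to 3.399, and -2.226 points, -4.918 to 3.55). For FS2-AEBP2 the shares were 2.018%, 8.333%, 1.671% and 41.95%. Here replicate-1-only promoters exceeded peak-free ones by 6.662 points (2.764 to 13.42), on 9 promoters among 108, and replicate-2-only promoters by 0.3467 points (-0.6491 to 2.136).

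Promoters without a CpG-island-like region gave another picture, on few promoters. AEBP2 replicate 2 peaks were present at 5 of 96 replicate-2-only promoters (5.208%) and 0.6128% of peak-free ones, a difference of 4.596 points (1.627 to 11.01), and at 5 of 279 replicate-1-only promoters (1.792%), a difference of 1.179 points (0.139 to 3.517). AEBP2 replicate 1 peaks were present at 2 of the 96 (2.083%, against 0.1313%, a difference of 1.952 points, 0.4387 to 7.15) and at 0 of the 279. FS2-AEBP2 was at 0 of either. Over all promoters, AEBP2 replicate 2 was at 24.35% of replicate-2-only, 10.34% of replicate-1-only and 13.87% of peak-free promoters, differences of 10.49 points (7.024 to 14.31) and -3.531 points (-6.233 to -0.06188) from the last. The share of promoters with a CpG-island-like region differs between these classes, at 82.29%, 27.91% and 49.04%.

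**Figure D4:**
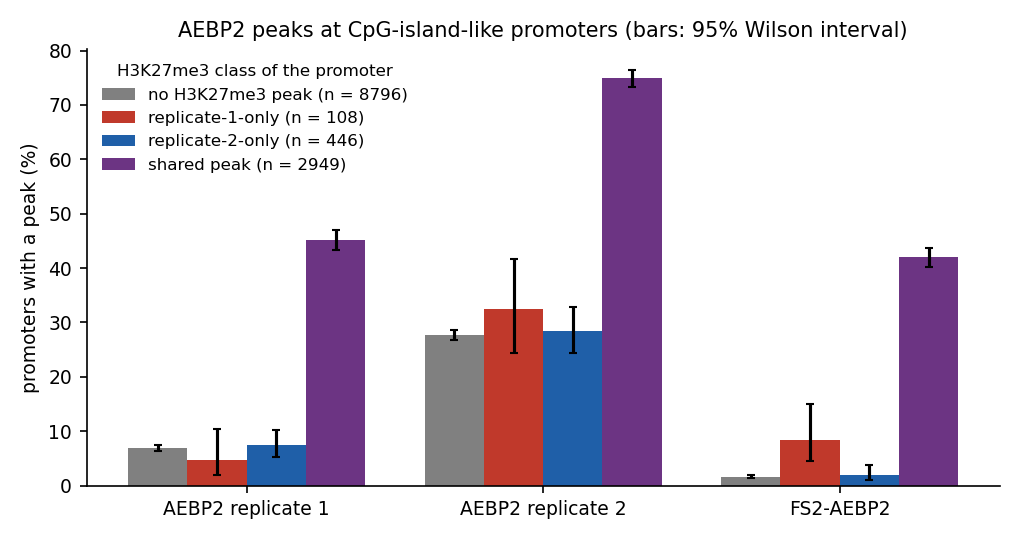
Percentage of promoters with a CpG-island-like region that have a peak of each AEBP2 list (y axis, from 0), by the H3K27me3 class of the promoter, with 95% Wilson intervals as bars. The one-library promoters stand beside the peak-free promoters for both endogenous lists (for replicate 2, 32.41% and 28.48% against 27.64%), and the shared promoters stand apart at 45.13%, 74.87% and 41.95%.

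Lists of gene families were used to see which genes carried one-library peaks. In the 17 lists of developmental transcription factors, ligands and receptors, 6 of 338 genes had replicate-1-only and 8 had replicate-2-only peaks alone at the promoter, 79 had no H3K27me3 peak and all others (72.49%) had a shared one. These counts make 1.78% and 2.37% of the lists, near the 1.73% and 2.42% of all promoters, so the lists did not stand out for one-library peaks and the genes are named as members only. Over all promoters 15.59% had a shared peak. All 39 Hox, 9 Pax, 12 LIM homeobox, 14 Nkx and 9 Dlx and Msx genes had a shared peak. With replicate-1-only peaks were Sox4 and Sox11, neural and progenitor transcription factors, Foxa3, an endoderm and liver factor, Foxi1, an ear and kidney factor, Pou2f2, a B cell factor, and Wnt8b, a forebrain Wnt ligand. Sox4 and Sox11 were the ones among these 6 with an AEBP2 replicate 2 and an FS2-AEBP2 peak at the promoter, and both had a CpG-island-like region. With replicate-2-only peaks were Foxj2, Eya1, a cofactor in ear and kidney development, Fzd6, a Wnt receptor, the ephrin pathway genes Ephb6 and Efnb3, and the semaphorins Sema3c, Sema4g and Sema4a, which guide axons and other migrating cells. A CpG-island-like region was present at all of these 8 but Sema4a, and AEBP2 peaks of both endogenous lists were present at Fzd6.

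Keratin genes were unlike these. Of 51, 12 had replicate-1-only peaks alone, 0 had replicate-2-only peaks alone, 7 had a shared peak and 32 had none. The highest scores were at Krt4 (14), Krt75 (10), Krt71 (9) and Krt2 (6), which encode type II keratins of epithelia and hair and lie near each other, so that they are not independent sites. None of the 12 had a CpG-island-like region or a peak of any AEBP2 list at the promoter. Across all promoters, 1.73% carried replicate-1-only peaks alone. Olfactory receptor genes, which serve in the olfactory epithelium, had replicate-1-only peaks at 10 of 1113, replicate-2-only peaks at 1 and shared peaks at 3. Over all promoters the shares were 2.42% for replicate-2-only peaks alone and 15.59% for shared peaks. Of 94 potassium channel genes 61 had shared peaks, 4 had replicate-1-only peaks alone and 4 others had replicate-2-only peaks alone. Among them were Kcnn1 (replicate 1) and Kcnq3 (replicate 2), which encode a calcium-activated channel and a subunit of the neuronal M-current channel. Of 353 solute carrier genes 83 had shared, 8 replicate-1-only and 6 replicate-2-only peaks, and Slc25a31, a testis form of the mitochondrial ATP carrier, had a member of each set. Among 18 pluripotency genes Klf4 alone had a one-library peak, a replicate-1-only peak with a score of 7, an FS2-AEBP2 peak and a CpG-island-like region.

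Single members with the highest scores showed the range within each set. Disc1 (ENSMUSG00000043051), a scaffold protein of neuronal development, had the replicate-1-only promoter peak with the highest score, 36, over 3898 bp at chr8:127576162-127580059. It contained the start site, 1360 bp of CpG-island-like sequence and 3076 bp of an AEBP2 replicate 2 peak, and no peak of the other AEBP2 lists. The nearest H3K27me3 peak of replicate 2 was 103575 bp away. Its 31-base words occurred in a median of 2 copies in the assembly, as did those of the member at Fndc1 (score 25, 8103 bp), a gene for a protein with fibronectin type III domains. The part of these copies in the calls was not tested.

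The next replicate-1-only promoter members by score, Ccdc27 and Krt4, were single-copy and long. Ccdc27 (ENSMUSG00000039492, score 16) had a peak of 10690 bp with 1.693 CpG per 100 bases. Krt4 (ENSMUSG00000059668, score 14) had one of 15931 bp at chr15:101748103-101764033 that reached Krt79 and held 1.437 CpG per 100 bases. Neither held a CpG-island-like region or an AEBP2 peak. They were followed by the predicted genes Gm17720 and Gm3248 (13), the olfactory receptor gene Olfr463, Calcb, which encodes a neuropeptide of the calcitonin family, the ubiquitin ligase gene Rnf144a and BC049730 (12), and Spata20 and Gnaz, a G protein alpha subunit (11). Of these 12 members, the ones at Spata20 and Olfr463 lay 328 and 988 bp from a peak of the other list and the others over 1 kb away.

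The longest replicate-1-only peak covered 18486 bp at chr7:85734240-85752725, between genes, with 1.001 CpG per 100 bases. The following one covered 17026 bp at chr8:118009198-118026223 with 0.8693 CpG per 100 bases, 205470 bp from the start site of Maf, a transcription factor of lens and other tissues. Away from genes the highest score, 17, belonged to a member of 6861 bp at chr14:63896798-63903658, 6268 bp from the start site of Gata4, an endoderm and heart factor. Its closest replicate 2 peak was 4220 bp away. The following members away from genes covered 2330 bp at chr11:88142212-88144541 (score 16) and 1846 bp at chr4:124949649-124951494 (score 15). The 3 members with peaks of all 3 AEBP2 lists lay at Gm5607 (score 5), Chst5 (score 3) and the neighbouring promoters of Obsl1 and Inha (score 1, the lowest in the list), and each held between 1190 and 2390 bp of CpG-island-like sequence.

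In the replicate-2-only set the highest score, and the highest at a promoter, belonged to a cluster on chromosome 2. A member of 164 bp between genes at chr2:98505193-98505356 scored 30, that at the predicted gene Gm10800 (ENSMUSG00000075014, chr2:98506401-98507471) scored 28, and that at Gm10801 (ENSMUSG00000075015, chr2:98502405-98503101) scored 18. Their words occurred in a median of 4, 43 and 1 copies, the nearest replicate 1 peak was 887722 to 892092 bp away, and none had a CpG-island-like region or an AEBP2 peak. The member of 150 bp at chr6:47624840-47624989 scored 23 and had words in a median of 10 copies. Another between genes, of 316 bp at chr9:35112821-35113136, scored 21 and had words in a median of 1 copy. The part of repeated sequence in these scores was not tested.

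Apart from this cluster, the other 10 of the 12 replicate-2-only promoter members with the highest scores all held CpG-island-like sequence, and all but Fcgr3 were single-copy. Vgll3 (ENSMUSG00000091243), a cofactor of TEAD transcription factors, had a peak of 1937 bp with a score of 19 that began 161 bp from the start site. Agbl3, a carboxypeptidase gene, scored 17, and Snx7, a sorting nexin gene, and Fcgr3, an Fc receptor gene whose words had a median of 3 copies, scored 16. At a score of 15 stood Sema3c (4357 bp, containing the start site), Dnajc6, the gene of the clathrin-uncoating factor auxilin, Zswim5 and the F-box gene Fbxl7, followed by Zc3hav1l and Kcnq3 at 14. Of the 10, Sema3c and Dnajc6 contained the start site and the other 8 ended between 48 and 951 bp from it. AEBP2 touched 3 of them, with 371 bp of AEBP2 replicate 2 at Fbxl7, 396 bp of FS2-AEBP2 at Zc3hav1l and 265 bp of AEBP2 replicate 1 at Kcnq3.

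The longest replicate-2-only peak, of 6488 bp, lay at the promoter of Myl12b, a myosin light chain gene, contained 1410 bp of CpG-island-like sequence and was 184910 bp from the nearest replicate 1 peak. The following ones covered 6029 bp at 65444 bp from Nkx2-1, a lung and forebrain factor, and 6005 bp in an intron of Atp8a2, a lipid flippase gene, and held no CpG-island-like region. The 4 members with all 3 AEBP2 lists lay at Zbtb7b, a T cell transcription factor, at Nrarp, a regulator of Notch signalling, at Prkcdbp and at a site 64907 bp from Pdia4 whose words had a median of 15 copies. Over whole sets, most words were in more than 1 copy in 2.368% (2.053 to 2.731) of replicate-1-only and 2.741% (2.16 to 3.472) of replicate-2-only members. Sampled tiles had 13.01% and 13.5%. Copies were exact matches, and a peak needs reads that can be placed, so the difference from tiles is not a trait of members alone. Shared peaks of the same list had lower shares still, 1.293% and 1.413% (shared minus member, -1.076 points, -1.516 to -0.6342, and -1.328 points, -2.102 to -0.6712). The one-library sets differed by 0.3725 points (-0.312 to 1.169), which was not resolved from 0.

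The sets were spread differently over the chromosomes. Replicate-1-only peaks numbered 3.037 per Mb of called bases over the genome, from 0.7712 on X to 5.914 on chromosome 7, 5.681 on chromosome 8 and 4.952 on chromosome 11. They made up 64.44% of the replicate 1 peaks of chromosome 7 and 37.67% of those of chromosome 10. Replicate-2-only peaks numbered 0.9412 per Mb, from 0.3949 on X to 1.282 on chromosome 8, and made up 19.67% of the list on chromosome 7 and 38.1% on chromosome 16. Between autosome 7 and X the replicate-1-only density thus differed 7.669-fold, while the range of the replicate-2-only density was 3.246-fold. Both ranges rest on X, and the cells are labelled as male (XY). The part of X copy number was not tested. On autosomes alone the densities ran from 1.301 (chromosome 10) to 5.914 and from 0.8488 (chromosome 17) to 1.282. Shared peaks were also sparsest on X. They ranged from 0.9995 to 4.379 per Mb in replicate 1 (4.381-fold) and from 1.086 to 4.91 in replicate 2 (4.521-fold). No peak of either list lay on Y. Over the 20 chromosomes with peaks, the density of replicate-1-only peaks followed that of shared peaks of the list with a Pearson r of 0.842 and a Spearman rho of 0.848, and that of replicate-2-only peaks with 0.664 and 0.362. These coefficients include X and were not taken without it. They describe chromosomes of the same library, which share its depth.

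**Figure D5:**
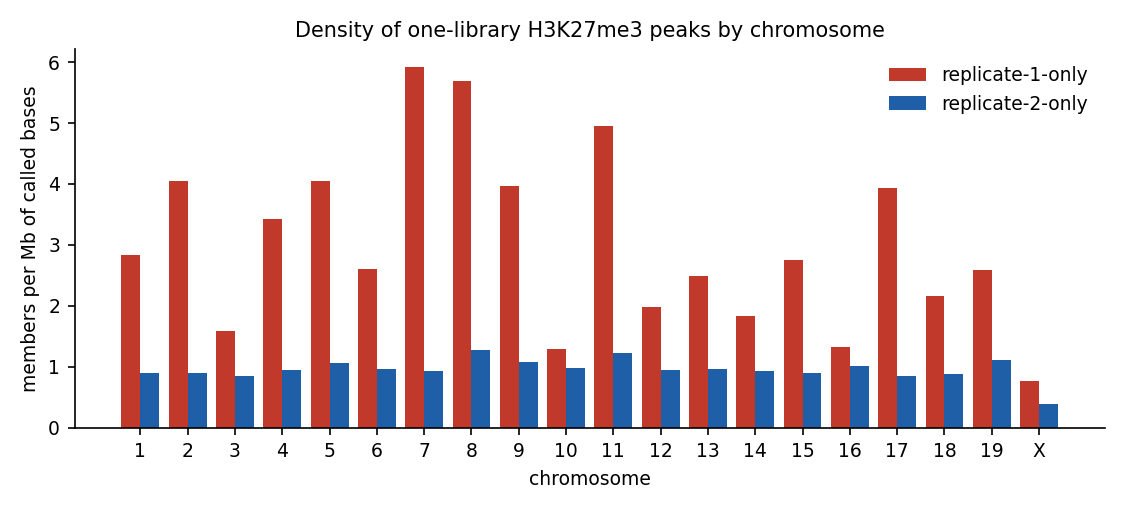
Members per Mb of called bases (y axis, from 0) on each chromosome for replicate-1-only peaks (red) and replicate-2-only peaks (blue). The red bars run from 0.7712 on X to 5.914 on chromosome 7, and the blue bars from 0.3949 on X to 1.282 on chromosome 8.

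Many replicate-1-only peaks lay near each other. Another member of the set lay within 10 kb of 46.74% (45.63 to 47.85) of replicate-1-only and 19.19% (17.66 to 20.81) of replicate-2-only peaks, the first set also being the larger. The same share was not taken for shared peaks or for random positions, so it is not shown to be particular to members. In bins of 1 Mb, the 133 densest of 2665 bins held 38.4% of replicate-1-only and 26.66% of replicate-2-only members. Member counts per bin followed those of shared peaks of the same list, with a Spearman rho of 0.688 and 0.46. The largest number in a bin was 62, at chr7:143000001-144000000, which had 3 shared peaks and no protein-coding start site. It was followed by 60 at chr8:118000001-119000000, which had 3 shared peaks and the start site of Maf. In replicate 2 the largest number was 14, at chr14:49000001-50000000, a bin with 3 shared peaks and 7 start sites, Otx2 among them, a factor of the anterior brain and eye.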

How the data were processed

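Peak lists of 5 wild-type samples were used, matched to samples through the sample records. The SUZ12, input and AEBP2 KO samples were not analysed here. The authors aligned reads to mm9 and called peaks in each sample separately. The submitters' processing notes name Bowtie, SAMtools, Picard and MACS2, in no stated order, and thresholds, the handling of duplicate reads and the control library are not given in the sources used here. The deposited score of each peak is a whole number of unstated scale.

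Overlap needed 1 bp. Promoters, exons and genes came from GENCODE vM1 and sequences from the matching NCBIM37 assembly. Genome tiles were consecutive windows without gaps, as long as the median member of a set (2136825 and 3089368 tiles), and every 100th was used for copy counts. Copies were exact matches, on both strands, of 31-base words, 5 per peak, in the whole assembly. Shares have 95% Wilson and differences 95% Newcombe intervals. No significance test was run, since peaks of 1 library are not replicates of a condition. Named members were the 12 promoter members with the highest scores in each set, the 3 longest, the 3 highest away from any gene, and those with all 3 AEBP2 lists (up to 5). Families were named by up to 4 examples in order of score, except the developmental lists, whose genes are all named. The windows printed departed from their rule in leaving out UTR bases. Members, gene lists and measures were chosen with earlier results of these data known, and the profile around start sites, copy counts, 1 Mb bins, the 300 bp limit and the AEBP2 differences by island class after the members' values were seen. Scripts were tested on simulated lists. Alternatives were other definitions of a shared peak, score limits, promoter widths, island criteria and AEBP2 lists. Software was Python 3.11.15 with pysam 0.24.0, numpy 2.4.6, scipy 1.17.1, matplotlib 3.10.9 and pandas 2.3.3.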

Additional observations from a re-analysis of the deposited data

Results flagged for a closer look

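Outside the chromosomes used, H3K27me3 replicate 2 had 13 peaks on unplaced sequences and the mitochondrial genome among its 9288, while replicate 1 had 0 of 14112. Whether such peaks had been removed from the replicate 1 list was not tested. The 13 peaks entered no comparison.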

How the results depend on the processing

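Of 44 alternative values, 16 stayed within the counting interval or 1.5-fold of the number, and 28 moved. The order of the sets held under each setting named here. Among these settings, genome tiles were compared only where an endogenous AEBP2 list was left out, and there 1 comparison turned. When the other list had to cover at least 50% of a peak for it to count as shared, promoter, CpG-island-like and endogenous AEBP2 shares became 8.209%, 6.756% and 3.772% for replicate-1-only and 27.74%, 28.93% and 7.835% for replicate-2-only peaks. With both lists limited to scores at or above their median, the numbers were 4859 and 868, and the shares 11.98%, 10.93% and 6.195%, and 50.35%, 53.57% and 19.24%. This setting also drops peaks of the other list, so that sites shared in full become members. With members alone limited in this way, 3647 and 444 remained, with a CpG-island-like share of 3.619% in the first and shares of 43.47%, 42.79% and 10.36% in the second. Promoters of 2.5 kb on either side gave 8.997% and 34.8%. Windows of 200 bp with 50% GC and a ratio of 0.6 gave CpG-island-like shares of 23.65% and 33.85%, so that the ratio between the sets depended strongly on the definition. Leaving out each endogenous AEBP2 list in turn gave 0.103% to 1.326% and 1.495% to 4.236%, and AEBP2 replicate 2 supplied most of the overlap. Without it the replicate-1-only share of 0.103% was below the 0.353% of tiles, whereas with both lists it was above them (1.364% against 0.769%). AEBP2 peaks with at least 50% of their length in a member gave 1.12% and 2.243%. Under each of these settings the replicate-2-only share was the higher. Leaving out an H3K27me3 replicate gives no value, since the sets need both lists. No paired analysis was possible because each set comes from 1 library and the results come from no test. Read depth is unknown and limits every statement on a missing peak.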
